A study of Mus musculus with 12 samples.

Results

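The genes described here are the protein-coding genes of mouse chromosome 10 that were expressed in 4T1 breast tumours, taken in their order along the chromosome. The 534 members were chosen by position and level: chromosome 10 in the deposited count table, protein-coding, and a mean of at least 5 CPM (a gene's count scaled to the total of its library) across the 12 tumours. They are 534 of 1004 protein-coding and 2707 annotated genes on the chromosome, and of 10950 protein-coding genes that reach this level in the whole series. The other 470 protein-coding genes of the chromosome lay below the threshold. Just inside it were Epm2a (5.13 CPM), Zfr2 (5.25 CPM) and Tube1 (5.33 CPM), and just outside it were Calhm6 (4.85 CPM), Shc2 (4.77 CPM) and Gstt1 (4.73 CPM). The first member starts at position 3316057 and the last ends at position 128794155 (GRCm39, the build of the files).

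WT and Tn tumours were compared, 6 of each, all from the mouse mammary carcinoma line 4T1 and all labelled as breast tissue. WT tumours grew from the parental cells. Tn tumours grew from 4T1 cells in which Cosmc (C1galt1c1, the chaperone that lets cells extend O-glycans beyond the Tn antigen) had been silenced by CRISPR/Cas9. The labels do not say whether the Tn cells are a clone, and they give no age, strain or time of the host mice. Polyadenylated RNA of whole tumour tissue was sequenced, so fewer cells of a type and less RNA per cell cannot be told apart.

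A chromosome holds genes of unrelated function, and neighbours along it are usually regulated separately. The genes of a chromosome share its copy number, however, so in tumour cells a gain or loss of a chromosome or an arm is known to raise or lower the RNA of many of its genes by a modest amount. Mouse chromosome 10 carries, among others, genes of steroid and growth factor signalling (Esr1, Erbb3, Kitl), cell cycle kinases (Cdk1, Cdk2, Cdk4), the p53 antagonist Mdm2, the cytolytic protein perforin (Prf1), both lysozymes (Lyz1, Lyz2), small leucine-rich proteoglycans (Dcn, Lum) and the mitochondrial enzyme citrate synthase (Cs). No DNA was measured here.

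Promoters of 5 members are shown as examples of members lower in Tn tumours (Cdk1, Tmpo, Cs) and members higher in them (Prf1, Lyz2). They were picked by name and do not represent the motif shares of those groups, which follow. Each is the 250 bases before the gene's start in RefSeq on GRCm38.p6, an earlier build than that of the files, written 5′ to 3′ on the gene's strand. Capitals mark the motif CCAAT (the CCAAT box), the motif GGGCGG (the GC box) and the motif TATAAA (the TATA box). Each was searched on both strands, so that a match on the other strand reads ATTGG or CCGCCC, and matches of different motifs may overlap.
Cdk1 (chr10:69352913-69353162, minus strand): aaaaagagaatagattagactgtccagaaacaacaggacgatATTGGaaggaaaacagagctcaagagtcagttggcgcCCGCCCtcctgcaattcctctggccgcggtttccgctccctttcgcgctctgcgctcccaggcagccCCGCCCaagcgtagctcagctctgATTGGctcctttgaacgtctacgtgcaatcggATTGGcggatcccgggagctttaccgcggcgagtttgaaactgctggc
Tmpo (chr10:91171620-91171869, minus strand): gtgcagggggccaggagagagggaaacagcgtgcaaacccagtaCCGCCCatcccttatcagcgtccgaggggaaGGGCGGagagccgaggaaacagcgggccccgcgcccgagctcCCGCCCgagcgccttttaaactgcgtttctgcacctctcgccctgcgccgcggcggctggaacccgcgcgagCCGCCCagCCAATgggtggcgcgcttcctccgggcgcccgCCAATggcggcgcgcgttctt
Cs (chr10:128337477-128337726, plus strand): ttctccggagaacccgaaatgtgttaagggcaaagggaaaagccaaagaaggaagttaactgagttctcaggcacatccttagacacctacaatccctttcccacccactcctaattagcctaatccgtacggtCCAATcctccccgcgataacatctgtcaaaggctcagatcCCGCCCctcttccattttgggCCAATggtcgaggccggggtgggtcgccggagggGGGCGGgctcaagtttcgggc
Prf1 (chr10:61297586-61297835, plus strand): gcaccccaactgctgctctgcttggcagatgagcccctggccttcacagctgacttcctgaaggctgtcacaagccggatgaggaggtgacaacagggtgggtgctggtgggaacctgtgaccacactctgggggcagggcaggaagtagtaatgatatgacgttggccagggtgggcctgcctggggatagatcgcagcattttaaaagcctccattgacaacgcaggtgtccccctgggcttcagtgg
Lyz2 (chr10:117282273-117282522, minus strand): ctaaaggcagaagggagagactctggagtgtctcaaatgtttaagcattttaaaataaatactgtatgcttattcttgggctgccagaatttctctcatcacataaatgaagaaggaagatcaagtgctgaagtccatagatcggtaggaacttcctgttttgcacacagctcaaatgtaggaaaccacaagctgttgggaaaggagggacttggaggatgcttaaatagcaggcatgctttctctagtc

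The windows of Cdk1, Tmpo and Cs held CCAAT and GGGCGG matches, and those of Prf1 and Lyz2 held none of the 3 motifs. The Cdk1 window held 19 CpG dinucleotides, that of Tmpo 32 and that of Cs 13, against 4 in that of Prf1 and 1 in that of Lyz2. RefSeq promoters were matched to 450 of the 534 members. A ratio of observed to expected CpG of at least 0.6 was found in 78.2% of the 188 matched members lower in Tn tumours, in 45.2% of the 31 higher ones and in 74.9% of the 231 that did not pass the test. The same ratio was reached by 70.4% of the promoters of expressed genes on the other chromosomes and by 34.8% of all 26794 promoters of the table. CCAAT was present in 36.2% of the members' windows, in 36.4% of those of expressed genes on the other chromosomes and in 34.7% of all promoters. For GGGCGG these shares were 63.8%, 61.7% and 33.2%, and for TATAAA 6.89%, 6.07% and 13%. The members' windows were thus close to those of other expressed genes in all 3 motifs. Between members lower and higher in Tn tumours, CCAAT was in 35.1% against 51.6%, the opposite order to the 5 windows shown, TATAAA in 5.85% against 12.9% and GGGCGG in 66.5% against 51.6%. A match describes letters only.

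The 12 libraries held 113575859 to 156880766 counts each, and all 534 members were among the 19255 genes tested. C1galt1c1, on chromosome X, stood at 19.6 ± 3.05 CPM (SD, n = 6) in WT against 11.3 ± 0.775 CPM in Tn tumours, and the groups did not overlap. The carcinoma keratins Krt8 and Krt18 were at 1147 ± 269 and 1194 ± 247 CPM in WT against 1001 ± 233 and 999 ± 225 CPM in Tn tumours, and neither passed the test (edgeR adjusted p = 0.42 and 0.259). Of 6 carcinoma markers 2 fell and none rose. Those that fell were the keratins Krt7 (log2 fold change -1.45, edgeR adjusted p = 0.00609) and Krt19 (-2.07, edgeR adjusted p = 0.0339). Epcam (-0.89) and Cdh1 (-0.29) did not pass (edgeR adjusted p = 0.157 and 0.47). The summed level of the 6 was 2157 to 4525 CPM in WT against 1985 to 3393 CPM in Tn tumours. Among the 12 tumours, Tn tumour 4 was highest in summed T cell markers (515 CPM), Tn tumour 6 in keratinocyte markers (2999 CPM) and WT tumour 6 in adipocyte markers (1179 CPM). Other tumours were highest in other lists: WT tumour 2 in fibroblast markers (18825 CPM), Tn tumour 1 in macrophage markers (3624 CPM), Tn tumour 2 in natural killer cell markers (118 CPM) and Tn tumour 5 in skeletal muscle markers (119 CPM). Library names carry lower numbers in every Tn than in every WT tumour, and this order cannot be told apart from the group. Beyond calling them biological replicates, nothing in the labels says that the 6 tumours of a group came from separate mice. The p-values set the group difference against the spread between these tumours. The labels describe no independently edited cells, so the tumours may repeat the growth of the injected cells but not the editing. The p-values therefore do not extend to other Tn or WT cells.

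Genes of chromosome 10 were lower in Tn tumours as a body, by a modest amount per gene. Of the 534 members, 224 (41.9%) fell and 38 (7.12%) rose at an adjusted p under 0.05 (edgeR quasi-likelihood test over all genes). Over all genes tested, 17.4% fell and 19.5% rose. The median log2 fold change of the members was -0.19, with quartiles of -0.41 and 0.02, and 391 members (73.2%) had a negative value. The 10405 genes of the other chromosomes at the same CPM threshold had a median of 0.07, with 16.5% lower and 26.4% higher. In 129 members the 6 Tn tumours were all lower than any WT tumour, and in 16 all higher, where 8.35% of all genes tested lay below and 8.81% above. Most of the falls were small: 24 of the 224 reached 2-fold, against 16 of the 38 rises. Most changes were small elsewhere too. Of the 10405 genes of the other chromosomes, 1717 fell and 2743 rose, and 378 of those falls and 435 of those rises reached 2-fold. At 2-fold, chromosome 10 thus stood out little from the rest. Without Tn tumours 4 and 6 and WT tumour 6, which are only some of the tumours highest in a marker list, 190 members fell and 30 rose. The chromosome was proposed with its low median already known, so these counts and medians describe it and carry no test.

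The lower level was present in each Tn tumour. For each tumour, the log2 ratio of a member is its log2(CPM + 0.5) minus the WT mean, where a WT tumour is set against the other WT tumours. The median ratio over the members was -0.16, -0.25, -0.33, -0.27, -0.12 and -0.08 in Tn tumours 1 to 6, and 0.04, -0.09, 0.01, 0.03, -0.02 and 0.05 in WT tumours 1 to 6. Tn tumour 6 and WT tumour 2 thus overlapped on this scale. The medians of the genes of the other chromosomes were above 0 in all 6 Tn tumours (0.06 ± 0.02, SD, n = 6). Relative to them, chromosome 10 stood at -0.22, -0.30, -0.40, -0.30, -0.16 and -0.15 in Tn tumours 1 to 6 (mean -0.26 ± 0.10), and between -0.08 and 0.04 in the WT tumours (mean 0.00 ± 0.05). On that scale the groups did not overlap, with Tn tumour 3 lowest and WT tumour 2 the lowest of its group. The share of members below the WT mean ran from 57.7% in Tn tumour 6 to 81.3% in Tn tumour 3, and from 42.5% to 69.1% in WT tumours. The members took 6.71 ± 0.18% of all counts in WT and 5.87 ± 0.36% in Tn tumours, and every Tn tumour (at most 6.23%) lay below every WT tumour (at least 6.38%).

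**Figure D1:**
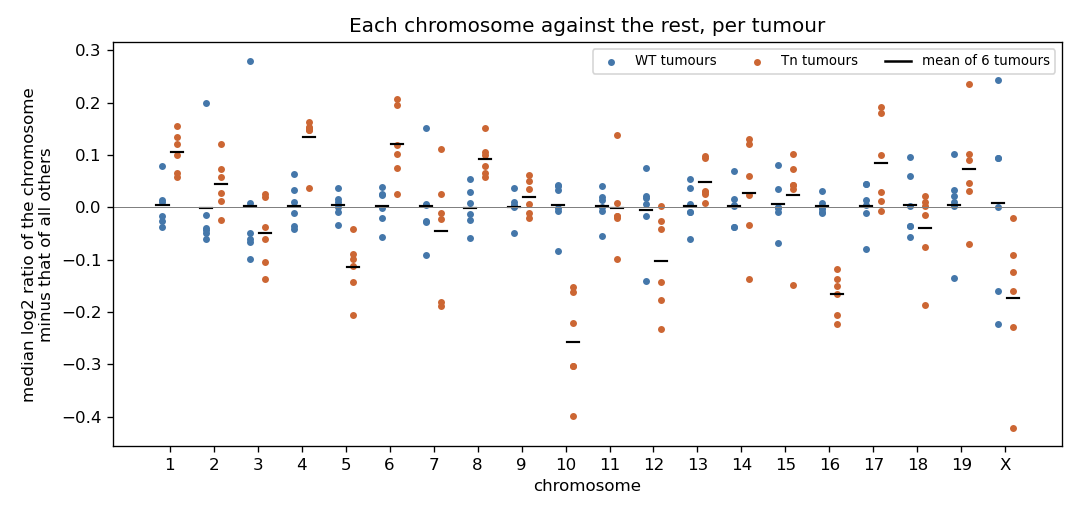
For each chromosome, each point is a tumour (blue WT, orange Tn; 6 each), and the y axis is the median log2 ratio of its expressed protein-coding genes minus the median of all other genes; black bars are group means. On chromosome 10 the Tn tumours lie between -0.40 and -0.15 and all WT tumours above them.

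Chromosome 10 had the lowest median log2 fold change of the 20 chromosomes, followed by X (-0.12), 16 (-0.10) and 5 (-0.06). The share of genes that fell was 32.9% on chromosome 16, 28.8% on X and 24.3% on chromosome 5. Relative to the rest, chromosome 16 stood at -0.17 ± 0.04 and chromosome 5 at -0.11 ± 0.06 in Tn tumours, and on both the groups were separate. On X the tumours overlapped, with Tn tumours from -0.42 to -0.02 and WT tumours from -0.22 to 0.24. A lower median with separate groups was therefore not confined to chromosome 10, and the differences between these chromosomes were not tested. On chromosome 8 the groups were separate in the other direction (0.09 ± 0.03 in Tn tumours).

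**Figure D2:**
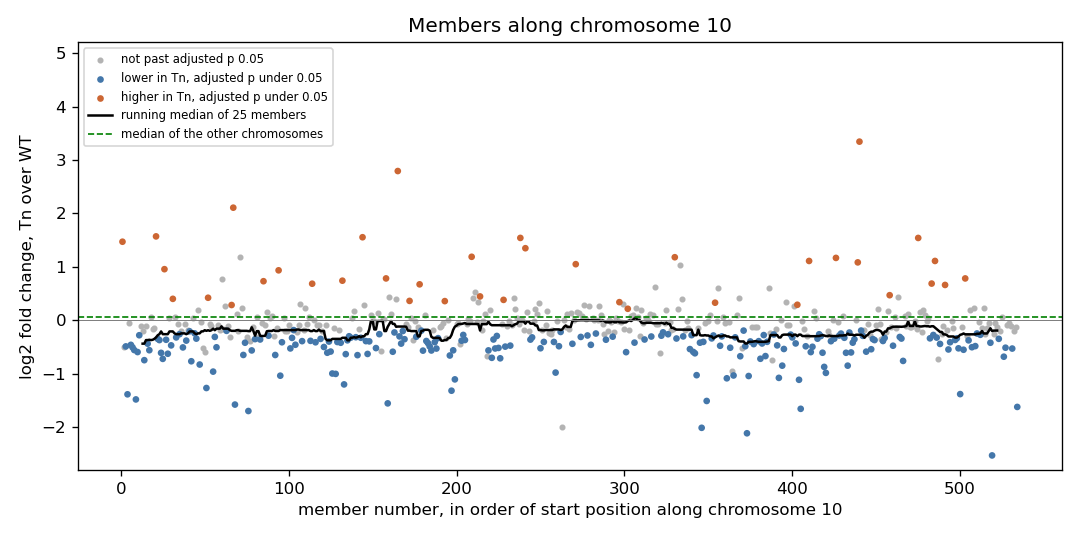
Each point is a member, placed by its order of start position (x axis, 1 to 534) against its log2 fold change, Tn over WT (y axis). The black line is the running median of 25 members, which lies below the green median of the other chromosomes (0.07) at every position.

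The lower level ran along the whole chromosome rather than through a segment of it. In running windows of 25 neighbouring members, 493 of 510 windows had a median below 0 and all 510 lay below the median of the other chromosomes. The lowest median, -0.44, was shared by the first window, from Ppp1r14c to Stxbp5, and the next, from Plekhg1 to Rab32. The highest, 0.04, was shared by the windows from Klf16 to Zfr2 (80402958 to 81087957) and from Abhd17a to Mrpl54. In bins of 10 Mb, the mean of the 6 Tn tumours was negative in all 13 bins. It was lowest in the first bin (0 to 10 Mb, 25 members) at -0.37 ± 0.08 and highest in the eighth (70 to 80 Mb, 80 members) at -0.10 ± 0.10. The bins from 90 to 100, 100 to 110 and 110 to 120 Mb stood at -0.29 ± 0.10, -0.34 ± 0.08 and -0.30 ± 0.10, with 33, 8 and 32 members. In these 3 bins, in the first and in that from 40 to 50 Mb (-0.26 ± 0.07), no Tn tumour reached the lowest WT tumour. In the other 8 bins at least 1 Tn tumour reached into the WT range.

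The Tn tumours differed along the chromosome. In the first bin Tn tumours 1 to 6 had medians of -0.27, -0.31, -0.47, -0.44, -0.34 and -0.40, against -0.05 to 0.14 in WT tumours. In the eighth bin they had -0.04, -0.17, -0.21, -0.18, -0.01 and 0.02, and WT tumours ran from -0.08 to 0.08. Tn tumour 6 was thus as low as the others at the start of the chromosome and within the WT range between 70 and 90 Mb, where its medians were 0.02 and 0.01. It also lay within the WT range from 20 to 40 Mb (-0.18 and -0.05), from 50 to 70 Mb (-0.08 and -0.07) and from 120 to 130 Mb (-0.03). The share of members that fell ranged from 30.0% in the eighth bin to 60.0% in the first and 75% of the 8 members between 100 and 110 Mb. The log2 fold changes of adjacent members were only weakly related (Pearson r = 0.10 over 533 pairs of neighbours within these libraries), and the same measure ran from -0.04 to 0.32 on the other chromosomes.

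**Figure D3:**
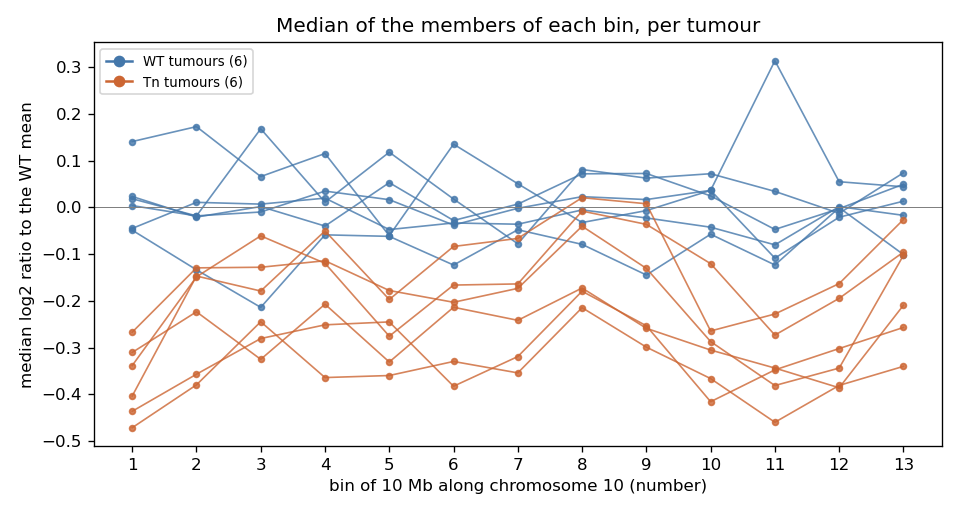
Lines join the median log2 ratio to the WT mean (y axis) of each tumour over the 13 bins of 10 Mb along chromosome 10 (x axis, bin number); blue lines are the 6 WT tumours and orange lines the 6 Tn tumours. The Tn lines lie below all WT lines in bins 1, 5, 10, 11 and 12 and come closest to them in bin 8.

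The difference from the other chromosomes was found at every level of expression and gene length. With the members split into 4 equal ranges of mean CPM, their median lay below that of the other chromosomes' genes of the same range by 0.20 to 0.28 log2 units. Long transcripts had lower values on the other chromosomes too: in the longest of 4 ranges of summed exon length the median was -0.36 on chromosome 10 and -0.07 elsewhere, and in the shortest it was -0.07 against 0.20. Within each range of length, chromosome 10 lay below the rest by 0.21 to 0.29. With each bin set against genes of the same length range, the 13 bins ran from -0.44 to -0.18. Members with a CpG-rich promoter had a median of -0.19 and those without one of -0.15, against 0.05 and 0.13 on the other chromosomes. Genes on the plus strand (median -0.22, 256 members) and on the minus strand (-0.18, 278 members) were alike in direction. The counting ignored strand, and 184 members share at least 1 exon base with another gene. Among the 350 that share none, 145 fell, 27 rose and the median was -0.18.

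Of 27 cell cycle and genome maintenance genes in a list drawn up for the chromosome, 16 fell (59.3%) and 1 rose (3.70%), with a median log2 fold change of -0.28. Falls outnumbered rises among the members at large too (41.9% and 7.12%, median -0.19), and the lists below are to be read against those shares. Tmpo, which encodes the lamina-associated polypeptide thymopoietin, had 293, 323 and 339 CPM (lowest, median and highest) in WT tumours and 167, 195 and 218 CPM in Tn tumours. No Tn tumour reached the WT range, and the log2 fold change was -0.72 ± 0.07 (SE; edgeR adjusted p = 4.82e-05). Cdk1, the kinase that drives entry into mitosis, had 169, 212 and 230 CPM in WT against 99.1, 130 and 160 CPM in Tn tumours. These groups did not overlap either (-0.66 ± 0.11, edgeR adjusted p = 0.000825). Timeless, a replication fork protein, fell from 49.2 ± 3.71 to 33.6 ± 2.68 CPM (SD, n = 6 each; -0.55 ± 0.07, edgeR adjusted p = 0.000163). Cdk2, the kinase of the start of DNA replication, fell from 54.3 ± 3.03 to 42.8 ± 1.48 CPM (-0.35 ± 0.05, edgeR adjusted p = 0.000469). The primase subunit Prim1 (-0.41), the thymine glycosylase Tdg (-0.54), the deacetylase Sirt1 (-0.53) and the RNA helicase Ddx21 (-0.57) also fell. Cdk4, the kinase of the early cell cycle, had 425 ± 18.4 CPM in WT against 421 ± 45.6 CPM in Tn tumours and did not pass (edgeR adjusted p = 0.89). The antiproliferative gene Btg1 alone rose, from 363 ± 30.4 to 445 ± 37.7 CPM, with no overlap (0.29 ± 0.07, edgeR adjusted p = 0.00914).

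The distal end of the chromosome holds the orthologs of a segment that human sarcomas and glioblastomas amplify, with Mdm2, Cdk4 and Hmga2. Of 29 such members, 11 fell (37.9%) and 3 rose (10.3%), and the median was -0.16, close to the values of all members. Nup107, a nuclear pore subunit, had 74.6, 85.3 and 90.8 CPM (lowest, median, highest) in WT and 54.5, 56.4 and 57.7 CPM in Tn tumours. The Tn tumours lay close together and below all WT tumours (-0.58 ± 0.06, edgeR adjusted p = 3.37e-05). Further members with separate groups were Dyrk2, a kinase (-0.54), Cct2, a subunit of the TRiC chaperonin (-0.42), Cand1, an exchange factor of cullin ligases (-0.35), and Lemd3, an inner nuclear membrane protein (-0.33). Mdm2, the ubiquitin ligase of p53, fell from 73.5 ± 5.16 to 60.1 ± 3.79 CPM, with overlapping groups (-0.29 ± 0.06, edgeR adjusted p = 0.0034). Hmga2, an architectural chromatin protein, had 450 ± 86.9 CPM in WT against 354 ± 61.8 CPM in Tn tumours and did not pass (edgeR adjusted p = 0.0823). Ddit3, a stress-induced transcription factor whose exons overlap those of Mars1 on the other strand, was higher in Tn tumours at 19.6 ± 6.94 against 12.1 ± 2.95 CPM (0.69 ± 0.23, edgeR adjusted p = 0.0335). It did not pass without WT tumour 2, 3, 4 or 6 or Tn tumour 5 or 6, each left out alone (edgeR adjusted p up to 0.0708).

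**Figure D4:**
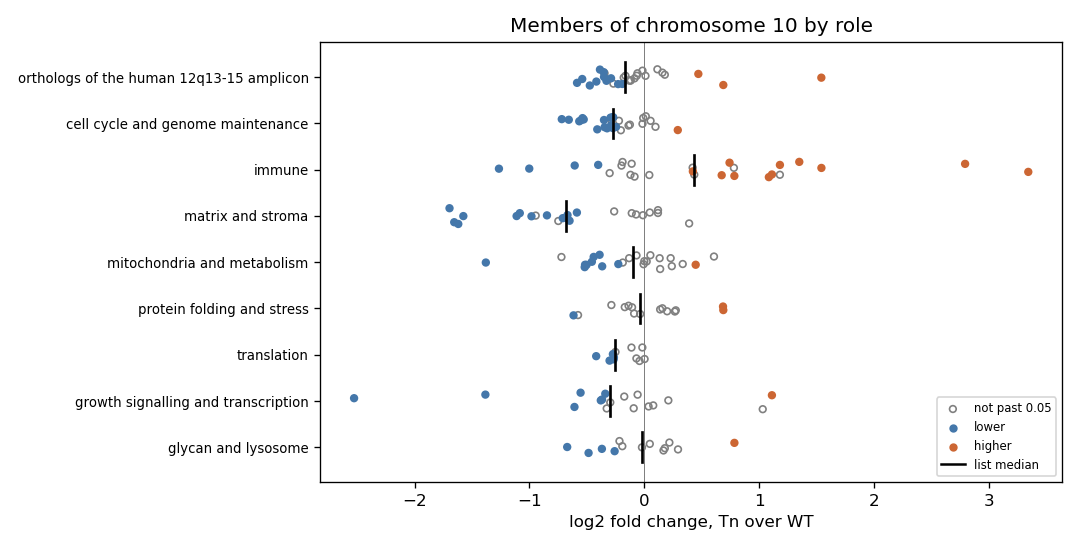
Each point is a member of a list (rows) at its log2 fold change, Tn over WT (x axis); filled blue and orange points fell or rose at an adjusted p under 0.05, open points did not pass, and black bars are list medians. The immune list has a median of 0.43, the matrix and stroma list of -0.68, and the other lists lie between -0.30 and -0.02.

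Of 24 members with roles in mitochondria or metabolism, 9 fell (37.5%) and 1 rose (4.17%), shares near those of all members (median -0.10). Cs, citrate synthase, had 288, 314 and 376 CPM (lowest, median, highest) in WT and 194, 225 and 269 CPM in Tn tumours, with no overlap (-0.50 ± 0.09, edgeR adjusted p = 0.00145). Gls2, the liver-type glutaminase, fell from 9.64 ± 3.31 to 3.70 ± 0.505 CPM (-1.38 ± 0.20, edgeR adjusted p = 0.000393). Shmt2, the mitochondrial serine hydroxymethyltransferase, fell from 160 ± 19.5 to 118 ± 10.9 CPM (-0.44 ± 0.09). Amd1, which makes the aminopropyl donor of polyamine synthesis, fell by 0.46 on the log2 scale, and the mitochondrial calcium uniporter Mcu and the sterol enzyme Lss each fell by 0.52. Aldh1l2, the mitochondrial formyltetrahydrofolate dehydrogenase, which is in no list, fell from 10.6 ± 1.12 to 2.62 ± 0.7 CPM with no overlap (-2.01 ± 0.17, edgeR adjusted p = 1.41e-05). It shares 14.1% of its exon bases with Nopchap1 on the opposite strand. Atp5f1b, the catalytic beta subunit of ATP synthase, fell by 0.37 on the log2 scale, with overlap. The respiratory chain and ATP synthase genes Ndufs7, Uqcr11 and Atp5f1d had log2 fold changes of 0.05, 0.00 and 0.02 and did not pass.

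Of 15 genes of protein folding and stress, 1 fell and 2 rose (median -0.04). The 1 that fell was Txnrd1, cytosolic thioredoxin reductase. It had 240, 257 and 281 CPM in WT against 161, 168 and 178 CPM in Tn tumours (lowest, median, highest), 2 narrow ranges far apart (-0.62 ± 0.06, edgeR adjusted p = 2.26e-05). Hsf2, a heat shock factor, had 24.8 ± 1.13 CPM in WT against 22 ± 1.71 CPM in Tn tumours and did not pass (edgeR adjusted p = 0.0632). It passed as lower with DESeq2 (DESeq2 adjusted p = 0.0206). With edgeR it passed under the filter at a mean CPM of 1, upper-quartile scaling and without Tn tumour 5 (edgeR adjusted p = 0.0212, 0.0243 and 0.0293). Sesn1, a p53 target of the sestrin family, rose from 20.4 ± 1.07 to 32.8 ± 7.76 CPM, with overlapping groups (0.69 ± 0.14, edgeR adjusted p = 0.00264). Hsp90b1, the endoplasmic chaperone, had 1087 ± 50.9 CPM in WT against 1061 ± 121 CPM in Tn tumours (edgeR adjusted p = 0.751). Of 11 translation genes 5 fell and none rose by that test (median -0.25). Pa2g4, a ribosome-associated growth regulator, was the member of this list whose groups did not overlap (-0.42 ± 0.08, edgeR adjusted p = 0.00185). Eef2, the elongation factor that takes the largest share of the members' counts, had 5106 ± 438 CPM in WT against 4142 ± 642 CPM in Tn tumours (-0.30 ± 0.11, edgeR adjusted p = 0.0401). It did not pass without WT tumour 1, 3, 4, 5 or 6 or Tn tumour 1, 2, 3 or 4, each left out alone (edgeR adjusted p up to 0.0923). Metap2, a methionine aminopeptidase (-0.26 ± 0.07), and Mars1, the methionyl-tRNA synthetase (-0.27 ± 0.09), fell with overlapping groups. Mars1 did not pass without WT tumour 4 or 6 or Tn tumour 1, 2, 3 or 4, each left out alone (edgeR adjusted p up to 0.066). The ribosomal proteins Rps12, Rps15 and Rpl41 had log2 fold changes of -0.11, 0.00 and -0.04 and did not pass.

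Among receptors, ligands and other signalling genes, 7 of 17 fell (41.2%, near the share of all members) and 1 rose (median -0.30). Erbb3, the kinase-impaired partner of ERBB2, had 24.3, 65.2 and 81.0 CPM (lowest, median, highest) in WT and 6.31, 9.80 and 17.2 CPM in Tn tumours. The groups did not overlap, and its log2 fold change of -2.53 ± 0.31 was the largest fall among the members that passed (edgeR adjusted p = 0.00014). Esr1, estrogen receptor alpha, fell from 34.1 ± 5.39 to 23.2 ± 3.49 CPM, with overlap (-0.55 ± 0.12, edgeR adjusted p = 0.004). The scaffolds Akap12 (-1.38 ± 0.25, edgeR adjusted p = 0.00145) and Sash1 (-0.61 ± 0.10, edgeR adjusted p = 0.000654) fell with separate groups. Kitl, the ligand of the KIT receptor, had 49.8, 58.0 and 81.6 CPM in WT against 86.9, 140 and 153 CPM in Tn tumours. Every Tn tumour lay above every WT tumour, while 17 of the 33 members of its bin fell (1.11 ± 0.16, edgeR adjusted p = 0.000291).

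The matrix and stroma list had the lowest median of the lists. Of its 23 members, 13 fell and none rose by the same test, and the median was -0.68. Lum, the collagen-binding proteoglycan lumican, had 68.2, 99.0 and 115 CPM (lowest, median, highest) in WT and 20.7, 27.6 and 42.8 CPM in Tn tumours, with no overlap (-1.65 ± 0.20, edgeR adjusted p = 0.000116). Lama2, a laminin chain of basement membranes, fell from 13.2 ± 4.56 to 4.08 ± 1.16 CPM (-1.70 ± 0.25, edgeR adjusted p = 0.000393). Itga7, a laminin-binding integrin of muscle and mural cells, fell from 30.0 ± 4.72 to 9.76 ± 3.28 CPM (-1.62 ± 0.22, edgeR adjusted p = 0.000207). Ccn2, connective tissue growth factor, fell by 1.57 and Dcn, decorin, by 1.11 on the log2 scale. Elk3, an ETS factor of endothelium and mesenchyme, fell by 0.67 with narrow, separate groups (363 ± 24.3 to 228 ± 21.2 CPM). Gja1, connexin 43, fell from 1253 ± 174 to 798 ± 214 CPM, with overlap (-0.65 ± 0.16, edgeR adjusted p = 0.00797). The neighbouring collagen VI genes differed: Col6a2 fell by 0.71, and Col6a1 had a log2 fold change of -0.07 that did not pass. Most fibroblast markers moved with these genes: 6 of 7 fell and 1 rose. The 1 that rose was Pdgfra, from 74.1 ± 13.4 to 151 ± 48.2 CPM (edgeR adjusted p = 0.00247). The summed level of the 7 was 7100 to 18825 CPM in WT against 3021 to 4282 CPM in Tn tumours. Most of that sum was RNA of the collagens Col1a1, Col1a2 and Col3a1. Of the pericyte and smooth muscle markers 4 of 6 fell (307 to 618 CPM in WT, 101 to 308 CPM in Tn tumours) and of the endothelial markers 5 of 6 (261 to 466 against 176 to 338 CPM). No marker of these 3 lists was at 0 in a tumour, and their part in the result was not tested.

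Immune genes of the chromosome rose more often than they fell. Of 26 members, 11 rose and 4 fell, and the median was 0.43. Prf1, perforin of cytotoxic lymphocytes, had 2.80, 3.65 and 8.05 CPM (lowest, median, highest) in WT and 12.8, 19.8 and 74.3 CPM in Tn tumours, with no overlap (2.79 ± 0.45, edgeR adjusted p = 0.000708). Stat2, the interferon signal transducer, rose from 79.8 ± 25.5 to 138 ± 14.6 CPM, and Ifngr1, the ligand-binding chain of the interferon gamma receptor, from 78.1 ± 5.58 to 105 ± 11.7 CPM, both with separate groups. Arhgap9, a gene active in blood cells, rose from 12.7 ± 2.36 to 27.5 ± 7.88 CPM (1.11 ± 0.19, edgeR adjusted p = 0.000852). Lyz2, the lysozyme of macrophages and neutrophils, had 488, 575 and 869 CPM in WT against 724, 1223 and 2319 CPM in Tn tumours, with overlap (1.09 ± 0.26, edgeR adjusted p = 0.00611). Lyz1 is its near-identical neighbour, so the split of reads between them is uncertain. Lyz1 had the largest rise of all members (3.34 ± 1.16, edgeR adjusted p = 0.0401), but it rested on Tn tumour 4 with 69.3 CPM, where the other Tn tumours held 0.712 to 2.92 CPM and WT tumours 0.423 to 2.69 CPM. With Tn tumour 4 left out it was 0.53 (edgeR adjusted p = 0.447), and without WT tumour 1, 3, 4, 5 or 6 its adjusted p was 0.0527 to 0.0783. With limma voom it did not pass either (1.53, adjusted p = 0.166). Trpm2, a calcium channel of myeloid cells (1.54), and Icosl, a costimulatory ligand (1.35), rose with overlapping groups. Icosl was at 0.85 without Tn tumour 4 and still passed (edgeR adjusted p = 0.00624), and Trpm2 had an edgeR adjusted p of 0.0525 without Tn tumour 1 and 0.0503 without Tn tumour 2.

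The 4 immune members that fell were Tnfaip3, Prdm1, Cd24a and Lta4h. Tnfaip3, the inhibitor A20 of NF-kappaB signalling, had 104, 118 and 158 CPM in WT against 31.1, 49.1 and 75.9 CPM in Tn tumours (lowest, median, highest), with no overlap (-1.26 ± 0.19, edgeR adjusted p = 0.000444). Cd24a, a surface glycoprotein also made by epithelial cells, fell from 372 ± 31.5 to 244 ± 32.2 CPM (-0.61 ± 0.09, edgeR adjusted p = 0.000463). Markers of T cells, natural killer cells and macrophages moved with the rises. All 9 T cell markers rose, with a summed level of 8.71 to 25.8 CPM in WT against 52.0 to 515 CPM in Tn tumours. All 5 natural killer cell markers rose, of which Prf1 is 1 (4.61 to 13.7 against 23 to 118 CPM). Of 8 macrophage markers 6 rose (776 to 1207 against 1194 to 3624 CPM). Of 5 B cell markers the 3 tested rose (0.565 to 1.24 against 1.06 to 579 CPM for all 5, highest in Tn tumour 4). Of 5 neutrophil markers none passed the test in either direction (30.3 to 112 against 28.7 to 170 CPM). The part of these cells in the result was not tested. Without the members of the immune and matrix lists, the chromosome had 207 lower and 27 higher members and a median of -0.20.

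Of 13 members with roles in glycans and lysosomes, 4 fell and 1 rose (median -0.02). Psap, the precursor of the saposins that help lysosomes degrade sphingolipids, had 1528, 1700 and 1952 CPM (lowest, median, highest) in WT and 2186, 2731 and 3852 CPM in Tn tumours. It rose with no overlap (0.79 ± 0.14, edgeR adjusted p = 0.00135). Gnptab, which makes the mannose 6-phosphate tag of lysosomal enzymes, fell from 90.4 ± 9.60 to 56.8 ± 7.21 CPM (-0.67 ± 0.10, edgeR adjusted p = 0.000301). Galnt4, a transferase of mucin-type O-glycans whose product, GalNAc on serine or threonine, is the Tn antigen, fell from 32 ± 2.71 to 22.8 ± 2.46 CPM with separate groups (-0.48 ± 0.08, edgeR adjusted p = 0.00104). It shares 8.25% of its exon bases with Poc1b on the same strand. Ust, which sulfates uronic acids of chondroitin and dermatan chains, fell from 42.5 ± 4.51 to 32.9 ± 6.56 CPM, with overlap (-0.37 ± 0.12, edgeR adjusted p = 0.033). It did not pass without WT tumour 1, 3 or 4 or Tn tumour 2, 3, 4 or 5, each left out alone (edgeR adjusted p up to 0.0751).

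**Figure D5:**
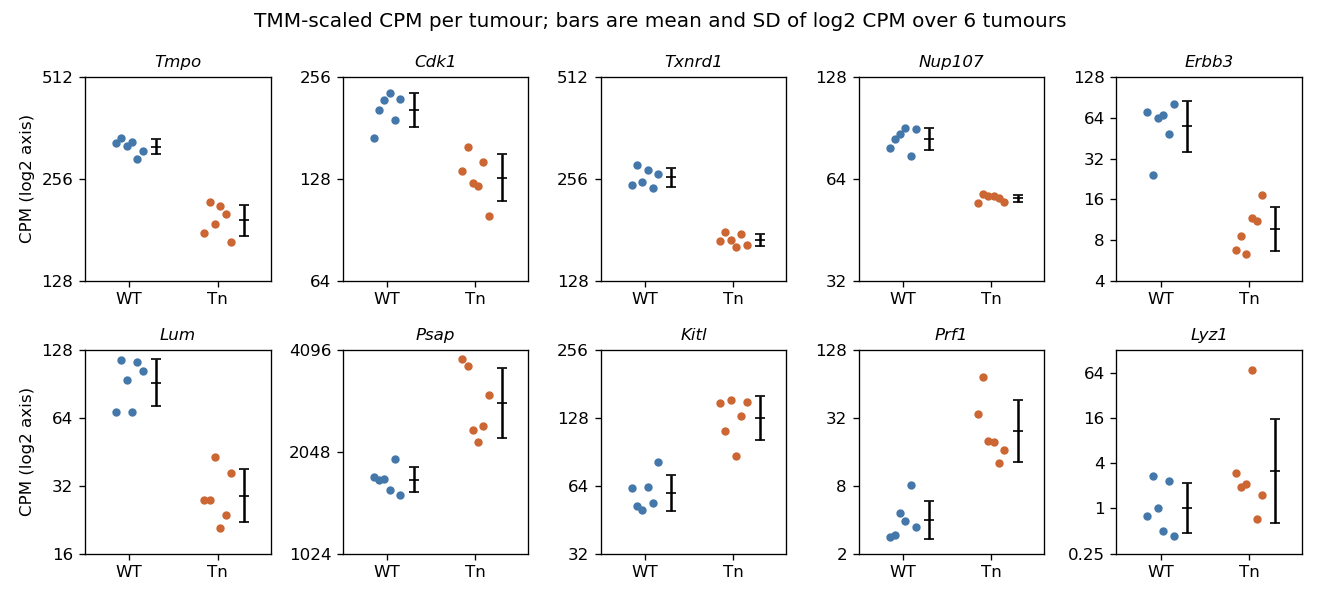
TMM-scaled CPM (y axes, log2) of 10 members in the 6 WT (blue) and 6 Tn (orange) tumours; points are tumours and bars the mean and SD of log2 CPM. In Tmpo, Cdk1, Txnrd1, Nup107, Erbb3 and Lum the Tn tumours lie below all WT tumours, in Psap, Kitl and Prf1 above them, and in Lyz1 Tn tumour 4 alone stands apart.

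Further large changes were in genes of other roles. Syne1, a nuclear envelope spectrin, fell from 181 ± 37.2 to 64.8 ± 11.6 CPM (-1.48 ± 0.15, edgeR adjusted p = 4.87e-05), with no overlap. The kinase Nuak1 (-1.51 ± 0.25), the cadherin Cdh23 (-1.55 ± 0.41) and the ion channel family member Ano4 (-2.11 ± 0.60) fell with overlapping groups. Moxd1, a monooxygenase-like secretory pathway protein, had 36.0, 56.7 and 66.2 CPM (lowest, median, highest) in WT and 103, 189 and 466 CPM in Tn tumours, with no overlap (2.11 ± 0.33, edgeR adjusted p = 0.000547). Ppp1r14c, a phosphatase inhibitor and the first member on the chromosome (1.47 ± 0.29), and Pkib, the inhibitor of protein kinase A (1.56 ± 0.21), rose with separate groups. Zc3h12d, an RNA-binding zinc finger protein of lymphocytes (1.57 ± 0.40), Agap2, which is also 1 of the 3 rises among the distal orthologs (1.54 ± 0.46), and Lrrc75b (1.19 ± 0.31) rose with overlap. Agap2 was at 0.90 without Tn tumour 4 (edgeR adjusted p = 0.0256), and Ano4 at -2.91 without Tn tumour 5 (edgeR adjusted p = 0.000852).

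The members with the most counts in each bin were chosen for their level and not for change. Of these 13, Tab2, Gja1, Eef2, Slc25a3 and Ppp1r12a fell, Marcks, Psap and Lyz2 rose, and Perp, Rps12, Cd164, Bsg and Rpl41 did not pass. Among all members 41.9% fell and 7.12% rose, so rises were more frequent in this small set than on the chromosome. With limma voom, Bsg passed as lower (-0.31, limma voom adjusted p = 0.0306). Tab2, an adaptor of the TAK1 kinase, had 214, 223 and 242 CPM in WT against 163, 175 and 186 CPM in Tn tumours (lowest, median, highest), with no overlap (-0.35 ± 0.05, edgeR adjusted p = 0.000474). Slc25a3, the mitochondrial phosphate carrier, fell from 604 ± 70.2 to 462 ± 46.0 CPM (-0.39 ± 0.09, edgeR adjusted p = 0.00575). Marcks, a membrane-bound substrate of protein kinase C, rose from 134 ± 27.6 to 256 ± 59.2 CPM with separate groups (0.94 ± 0.17, edgeR adjusted p = 0.00138). Perp, a desmosome-associated p53 target, had 51.6 to 96.1 CPM in 5 Tn tumours and 312 CPM in Tn tumour 6, against 87.6 to 228 CPM in WT tumours. It did not pass over all tumours with edgeR (-0.59 ± 0.42, edgeR adjusted p = 0.289) but did with limma voom (-1.07, limma voom adjusted p = 0.0186). It fell without Tn tumour 6 (-1.20, edgeR adjusted p = 0.00429). In that tumour the summed keratinocyte markers were highest, at 2999 CPM, and a relation of Perp to them was not tested. Ppp1r12a, the myosin phosphatase targeting subunit, fell by 0.26 on the log2 scale, and its adjusted p was 0.0556 to 0.0642 without Tn tumour 1, 2 or 3.

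Beside the lists, 360 members belonged to none. Of these 155 fell and 19 rose, and the median was -0.20. The spread between tumours was similar to that of other genes: the median SD of log2(CPM + 0.5) over the 6 tumours of a group was 0.15 in WT and 0.19 in Tn tumours for the members, and 0.16 and 0.18 for the genes of the other chromosomes.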

How the data were processed

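The deposited values are unnormalised exon read counts of each gene in 12 tumours. Per the file headers, the authors counted with featureCounts on the Ensembl 112 annotation of GRCm39 with paired reads mapped at both ends and no strand setting. Per the submitters' processing notes, the tools were FastQC, fastp 0.23, STAR 2.7.11a and featureCounts of Subread 2.1.1. Reads of overlapping or antisense genes and of near-identical copies are therefore uncertain. The gene length column of the deposited table, in bases, served only to compare genes of similar length. Symbols and gene classes came from a later GRCm39 annotation, which held 56630 of the 57186 identifiers.

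Counts were fitted with edgeR 4.0.16 in R 4.3.3 over all 12 tumours and 19255 genes: TMM scaling, the filterByExpr filter, robust quasi-likelihood, two-sided p-values and Benjamini-Hochberg adjustment over all genes tested, with a threshold of 0.05. The fit was tested on simulated data. Log2 fold changes are Tn over WT, with a standard error equal to the fold change over the square root of F. Printed CPM are TMM-scaled, except those of the member threshold. The log2 ratios per tumour used a pseudocount of 0.5 CPM. Levels of different genes are not compared, since CPM depends on length.

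The members, the gene lists and the comparison of chromosomes were chosen with earlier results of these data known, so no set of members was tested. Genes named are the 10 largest rises and 10 largest falls past the threshold, the member with the highest mean CPM in each bin of 10 Mb, up to 4 members per list with the smallest p, and the members at the edges of the threshold. Other members named within a list were chosen after their values were seen. Alternatives were 2 other scalings (RLE, upper quartile), the tools DESeq2 1.42.0 and voom of limma 3.58.1, no filter, a filter at a mean CPM of 1, a replicate block, leaving out each tumour in turn or 3 together (Tn tumours 4 and 6 and WT tumour 6), other bins, thresholds and members. The comparison within length ranges and the members that share no exon base were added after seeing the data. No batch term was used. The order of the library names follows the group, so a batch that followed this order could not be told apart from the group.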

Additional observations from a re-analysis of the deposited data

Results flagged for a closer look

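In 152 groups of 6 values (bin medians and named genes), the gap of the highest or lowest tumour to its nearest neighbour, divided by the range of the group, was compared with the critical value of Dixon's test, which chance passes in about 1 in 20 groups. In 10 groups (6.6%) a tumour stood apart. WT tumour 1 did so in 4: as the highest in the bins from 100 to 110 Mb (ratio 0.64; median log2 ratio 0.31 against at most 0.03 in the other WT tumours) and from 110 to 120 Mb (0.702; 0.05 against at most 0.00), and in log2 CPM of Tab2 (0.635) and Ppp1r12a (0.691). Tn tumour 6 stood apart in Ccn2, where it was the lowest Tn tumour (0.701; log2 CPM 4.80 against at least 6.33), and in Perp, where it was the highest (0.655; 8.29 against at most 6.59). Tn tumour 4 was the highest Tn tumour in Lyz1 (0.744; 6.12 against at most 1.77). Tn tumour 3 was the lowest Tn tumour in Syne1 (0.652). WT tumour 6 was the highest WT tumour in Ccn2 (0.667), and WT tumour 2 the lowest in Gja1 (0.671).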

How the results depend on the processing

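The count of members called, the median of the members and the bin medians kept their direction under every alternative run. Only counts under stricter rules moved by over 1.5 times: 22 higher members at an adjusted p under 0.01, 40 called members (24 lower, 16 higher) at a change of at least 2-fold, and 25 higher members at a mean CPM of at least 20. With each tumour left out, lower members numbered 191 to 221 and the median relative to the other chromosomes ran from -0.28 to -0.23. Without Tn tumours 4 and 6 and WT tumour 6, 190 fell and 30 rose. Lower members numbered 241 with DESeq2, 243 with limma voom and 188 with no filter. Scaling moved the median of all genes by at most 0.05 (upper quartile: -0.05, with 254 lower and 32 higher members). The replicate numbers did not pair the tumours: same-numbered tumours correlated from -0.12 to 0.16, and none correlated best with its own number. With the replicate block, 201 members fell and 32 rose, and the median was -0.20. A block fit of the bin medians was not run, since they come from no fitted model. Of the 62 named genes, 47 kept direction and call in all fits run. Direction reversed with single tumours left out for Cd164 (-0.0358 to 0.108) and Rpl41 (-0.112 to 0.0197), neither of which passed in any of these fits, and the cause was not tested. Without the 3 libraries, 7 named genes no longer passed: Ano4 (-2.05, edgeR adjusted p = 0.0515), Agap2 (0.89, 0.0602), Lyz1 (0.41, 0.586), Eef2 (-0.33, 0.0663), Ppp1r12a (-0.29, 0.0557), Ddit3 (0.56, 0.122) and Metap2 (-0.21, 0.068). With the replicate block, Agap2, Lyz1, Ppp1r12a and Ust did not pass (edgeR adjusted p = 0.0839, 0.389, 0.0517 and 0.0543) and Perp did (0.0474). What depth limits was not tested beyond the alternative CPM thresholds.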
